A study of Zea mays with 4 samples.

Results

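The genes described here carry the symbols that plants use for the genes of the plastid genome. They were chosen by name alone. A row of the expression table was taken when its symbol was one of PSA, PSB, PET, ATP, NDH, RBCL, RPO, RPL, RPS or YCF with the letter or number of a plastid gene, with or without a copy suffix. This found 62 loci with 35 distinct symbols among the 43110 loci of the table. The RNA came from mature tissue of a leaf that was still expanding, of the maize inbred line B73, grown in hydroculture. The methods of the study do not number that leaf, and a figure caption on the differentially expressed genes names leaf 6. The high nitrogen plants received 4 mM nitrate and the low nitrogen plants 0.04 mM nitrate from the time the third leaf was fully expanded, with calcium equalized between treatments. There were 2 libraries in each treatment, 4 in all, which the study calls biological replicates, and it was not stated how many plants went into each. Expression was given as FPKM, fragments scaled by transcript length and by sequencing depth, for loci on chromosomes 1 to 10 of B73 RefGen_v3.

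The plastid is the organelle of photosynthesis and keeps a small genome of its own. That genome encodes the reaction centre proteins of both photosystems, subunits of the cytochrome b6f complex, the ATP synthase and the NADH dehydrogenase-like (NDH) complex, the large subunit of rubisco, part of the plastid ribosome and the core of a plastid RNA polymerase. The remaining subunits of the same complexes are nuclear genes whose proteins are imported. Stretches of plastid DNA are also found as copies in plant chromosomes, where they may carry the symbol of the plastid gene they derive from.

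All 62 loci were placed by the authors' table on nuclear chromosomes, so the symbol did not by itself say that the locus was the plastid gene. The symbols were therefore compared with the plastid genome in RefSeq (assembly Zm-B73-REFERENCE-NAM-5.0). That genome has 71 protein-coding symbols that fit the naming rule, and 24 of them had at least 1 row in the table. None of the 4 polymerase symbols had a row, so the polymerase is not described. PSI was represented by 1 of 5 plastid symbols, PSII by 3 of 15, cytochrome b6f by 3 of 6, ATP synthase by 2 of 6, NDH by 4 of 11, and the ribosome by 9 of 21. Several ribosomal symbols (RPS12 and RPL32 among them) and ATPB are also names of nuclear genes, and others (RPL10, RPL17, RPL19, RPL29, RPL30, RPL39, RPS21, RPS28) are names of nuclear genes alone. RPS20 was in neither set and was kept with the nuclear names. A locus was called plastid-type here when RefSeq had its symbol in the plastid genome and in no nuclear gene, when it was a YCF reading frame, or when an ambiguous symbol lay within 100 kb of such a locus. This gave 39 plastid-type and 23 nuclear-type loci. The division was made after the values were seen and describes the loci only.

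Several plastid-type loci lay next to each other. On chromosome 1 from 203941549 to 203971162, NDHK, PETA and RBCL followed each other within 29614 bases. In the plastid genome 3 coding genes stand between ndhK and rbcL and 3 more between rbcL and petA. On chromosome 2 from 200747121 to 200766769, PSBE, ATPB and RBCL shared a single pair of bounds, and atpB and rbcL are direct neighbours in the plastid genome. On chromosome 5 from 209988181 to 210042720 there were 8 members, among them RPL2-A, PETD, RPS18, RPL33, YCF4, YCF72-1 and PSBZ. Of these, RPL33 and RPS18 are plastid neighbours. A pair of NDHG loci and RPS12-A lay on chromosome 2 from 172716026 to 172747554. Loci that share bounds in the table cannot be placed more exactly within them.

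Of the 62 loci, 47 had at least 1 FPKM in at least 2 libraries and were tested together with all 22889 loci that passed this filter. The 15 that did not pass were all plastid-type, and 8 of them were listed at 0 in every library. They were PSBE on chromosomes 2 and 3, both NDHB1 loci, PETD, both YCF15-A loci, 3 YCF72-1 loci, RPL2-A on chromosome 5, RPL20, RPL33, RPS12-A and RPS18. PETD and RPL2-A on chromosome 5 reached 1 FPKM in 1 library each. PETD, a cytochrome b6f subunit, had 1.23 and 0.916 FPKM under high and 0.189 and 0.307 FPKM under low nitrogen. RPL2-A on chromosome 10 passed only through its high nitrogen libraries.

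A locus was called when limma gave an adjusted p under 0.05 with a log2 fold change beyond 1 in either direction. No member was called, and 0.537% of all tested loci were (0.489% lower and 0.0481% higher in low nitrogen). NDHJ, a subunit of the NDH complex, had an adjusted p of 0.0727. At an unadjusted p under 0.05, 15 of the 47 tested members had less in low nitrogen and 0 had more, and over all tested loci 20.1% had such a p, 10.8% lower and 9.29% higher. The log2 fold change was at or below -1 at 13 members, 12 of them plastid-type, and at 7.96% of all tested loci. The treatments were apart, with low nitrogen below high nitrogen, at 22 of the 47 (46.8%), and with low nitrogen above at 2. Among the 22 is RPL2-A on chromosome 10, whose direction was set by the filter. Over all tested loci these shares were 27.2% and 26.6%. The median log2 fold change, taken on log2(FPKM + 1), was -0.40 for the members and -0.01 for all tested loci. Because 1 was added before taking logs, differences at loci of low FPKM come out too small.

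Plastid-type loci had the lower values of log2 fold change. Of the 24 tested plastid-type loci, 13 had an unadjusted p under 0.05, all of them lower in low nitrogen, and the median log2 fold change was -0.93, from -2.30 to 0.64. Of the 23 nuclear-type loci, all tested, 2 had an unadjusted p under 0.05 (RPL29 and ATPB on chromosome 6), both lower, and the median was -0.31, from -1.49 to 0.56. Without low nitrogen replicate 2 the nuclear-type median was 0.024, and the plastid-type median was -0.95. Scaling all libraries to equal FPKM sums moved the median of all tested loci to 0.59, and relative to that shift the plastid-type median was -1.01 and the nuclear-type median -0.20. The difference between the kinds was not tested.

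**Figure D1:**
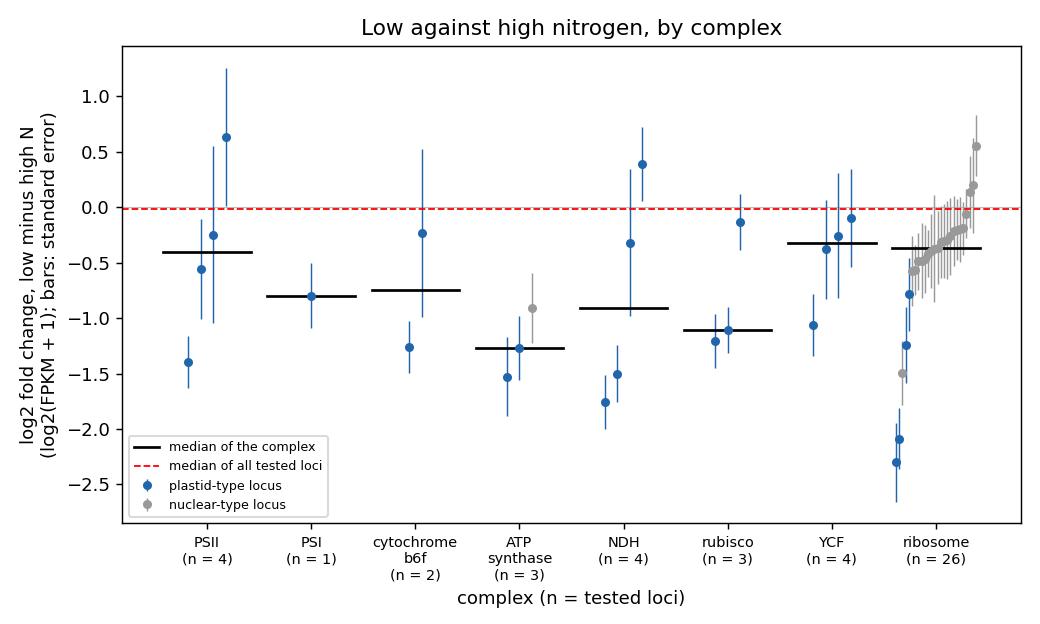
Log2 fold change (low minus high nitrogen, on log2(FPKM + 1)) of each tested locus, grouped by complex on the horizontal axis. Points are loci, bars are limma standard errors, black lines are the median of each complex and the dashed line is the median of all tested loci (-0.01). The medians run from -0.32 for YCF to -1.27 for ATP synthase, and the nuclear-type ribosomal loci other than RPL29 lie between -0.57 and 0.56. The ATP synthase group includes the nuclear-type ATPB on chromosome 6.

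FPKM sums were 1798408 and 1764398 in the high nitrogen libraries and 1141129 and 1043303 in the low nitrogen libraries, and the members held 0.226%, 0.207%, 0.192% and 0.162% of them. Steps of low FPKM values at 413 loci gave low nitrogen replicate 2 the greatest depth, 1.77 times that of high nitrogen replicate 1. Of the leaf markers, the mesophyll genes PEP carboxylase and CA1 (carbonic anhydrase) were lower in both low nitrogen libraries. PEP carboxylase had 19557 and 13126 FPKM under high and 4803 and 2630 FPKM under low nitrogen (log2 fold change -2.17), and CA1 had 6822 and 5262 FPKM under high and 1799 and 771 FPKM under low nitrogen (log2 fold change -2.35). Pyruvate orthophosphate dikinase had between 7886 and 18089 FPKM, with a log2 fold change of -0.86 (another locus of that gene had at most 1.63 FPKM). The bundle sheath marker PCK had 1971 and 3173 FPKM under high and 1663 and 2655 FPKM under low nitrogen, with overlap (log2 fold change -0.25). The rubisco small subunit (RBCS) is also a bundle sheath protein. At XLOC_010820 it had 8857 and 11321 FPKM under high and 4677 and 2387 FPKM under low nitrogen (log2 fold change -1.58). At XLOC_023187 it had 4176 and 6101 FPKM under high and 2975 and 1592 FPKM under low nitrogen (log2 fold change -1.21). The RBCS locus XLOC_020990 had overlap (log2 fold change 0.64). The part of these cell type markers in the members' differences was not tested. The meristem gene KN-1 was listed at 0 in all 4 libraries and the root nitrate transporter NRT2.1 had at most 0.201 FPKM. In such tissue RNA, fewer cells of a type and less RNA per cell cannot be told apart.

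PSII splits water and passes electrons to plastoquinone. PSBE encodes the alpha subunit of cytochrome b559 in its reaction centre. The PSBE locus on chromosome 10 from 90328039 to 90330214 had 12.8 and 11.5 FPKM under high and 4.50 and 3.55 FPKM under low nitrogen. The groups did not overlap, and the log2 fold change was -1.39 (standard error, SE, 0.23, adjusted p by limma = 0.0980). PSBA encodes the reaction centre protein that is replaced most often under light. Its locus on chromosome 9 from 37560868 to 37561807 had 81.8 and 15.0 FPKM under high and 35.9 and 24.5 FPKM under low nitrogen. The highest and the lowest value were both high nitrogen libraries, and the log2 fold change was -0.25 (SE 0.80).

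PSBZ encodes a small PSII subunit near the antenna and had a pair of loci on chromosome 5. The one from 210341357 to 210343220 had 8.99 and 2.02 FPKM under high and 9.65 and 5.85 FPKM under low nitrogen. The one from 210040709 to 210042720 had 15.6 and 10.5 FPKM under high and 13.0 and 5.31 FPKM under low nitrogen. The treatments overlapped at both, and the log2 fold changes were 0.64 and -0.56. Over the 4 tested PSII loci the median was -0.40, and it was 0.32 without high nitrogen replicate 1 and -1.13 without high nitrogen replicate 2. Under equal FPKM sums it was 0.26.

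PSI passes electrons on to ferredoxin, and PSAI is one of its small membrane subunits. PSAI on chromosome 10 from 114674168 to 114675545 was the only PSI locus. It was near the detection filter, with 3.22 and 2.71 FPKM under high and 1.003 and 1.60 FPKM under low nitrogen. The groups did not overlap, and the log2 fold change was -0.80 (adjusted p by limma = 0.231). Adding 0.1 in place of 1 before taking logs gave -1.16.

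The cytochrome b6f complex joins the photosystems. PETA encodes cytochrome f, and its locus on chromosome 1 from 203953509 to 203965581 had 10.8 and 9.43 FPKM under high and 3.25 and 4.07 FPKM under low nitrogen. Replicates were close and the groups did not overlap (log2 fold change -1.26, SE 0.24, adjusted p by limma = 0.112). PETB encodes cytochrome b6, and its locus on chromosome 5 from 21522922 to 21524744 had 41.5 and 8.90 FPKM under high and 23.3 and 11.5 FPKM under low nitrogen. As at PSBA, the highest and the lowest value both came from high nitrogen, and the log2 fold change of -0.23 had a standard error of 0.76.

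The ATP synthase uses the proton gradient of the thylakoid to make ATP. ATPB is its catalytic beta subunit and ATPH the subunit that forms the membrane ring. The ATPB locus on chromosome 2 from 200747121 to 200766769 had 44.2 and 29.9 FPKM under high and 16.0 and 13.1 FPKM under low nitrogen (log2 fold change -1.27, SE 0.28). ATPH on chromosome 9 from 61627828 to 61630396 had 13.0 and 6.80 FPKM under high and 3.02 and 2.27 FPKM under low nitrogen (log2 fold change -1.53, SE 0.36). The ATPB locus on chromosome 6 from 163133778 to 163137313 was nuclear-type, and RefSeq has a nuclear gene on that chromosome with the synonyms ATP2 and ATPB. ATP2 is a name of the beta subunit of the mitochondrial ATP synthase. That locus had 147 and 129 FPKM under high and 93.6 and 57.2 FPKM under low nitrogen, a log2 fold change of -0.91 (SE 0.31). At all 3 loci, this nuclear-type one included, both low nitrogen values lay below both high nitrogen values, as at 27.2% of all tested loci. The adjusted p-values by limma ran from 0.135 to 0.215.

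The NDH complex returns electrons from ferredoxin to plastoquinone in cyclic electron flow. NDHK and NDHJ encode subunits of its peripheral arm and NDHG a subunit in the membrane. NDHK on chromosome 1 from 203941549 to 203953491 was the photosynthetic member with the highest mean, with 197 and 172 FPKM under high and 55.8 and 74.3 FPKM under low nitrogen. Its log2 fold change was -1.50 (SE 0.26, adjusted p by limma = 0.102). NDHJ on chromosome 3 from 109831163 to 109832253 had 6.92 and 6.16 FPKM under high and 1.15 and 1.30 FPKM under low nitrogen. Of the photosynthetic members it had the most negative log2 fold change, -1.76 (SE 0.24, adjusted p by limma = 0.0727).

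The NDHG loci on chromosome 2 share the bounds 172716026 to 172740985 and were close to the filter. The one with the ID XLOC_011065 had 2.06 and 0.509 FPKM under high and 1.96 and 0.00122 FPKM under low nitrogen. The one with the ID XLOC_011066 had 1.23 and 0.704 FPKM under high and 1.90 and 1.26 FPKM under low nitrogen. It was the single tested photosynthetic locus at which both low nitrogen values lay above both high nitrogen values (log2 fold change 0.39, adjusted p by limma = 0.554). Because the loci share symbol and bounds, the authors' programs may have divided fragments among the pair.

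Rubisco fixes CO2, and RBCL encodes its large subunit, which in maize is a bundle sheath protein. The RBCL locus on chromosome 6 from 160977895 to 160984966 had 123 and 124 FPKM under high and 60.0 and 46.7 FPKM under low nitrogen (log2 fold change -1.21, SE 0.24). The RBCL locus at 203965684 to 203971162 of chromosome 1 had 34.8 and 37.3 FPKM under high and 16.4 and 16.0 FPKM under low nitrogen (log2 fold change -1.11, SE 0.21). The groups were well apart at both, with adjusted p-values by limma of 0.122 and 0.115. The RBCL locus on chromosome 2 had 9.50 and 7.67 FPKM under high and 6.76 and 8.81 FPKM under low nitrogen, so the treatments overlapped (log2 fold change -0.13). It lies in the same bounds as the ATPB locus with a log2 fold change of -1.27, and the table lists it also under GRMZM2G417715.

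**Figure D2:**
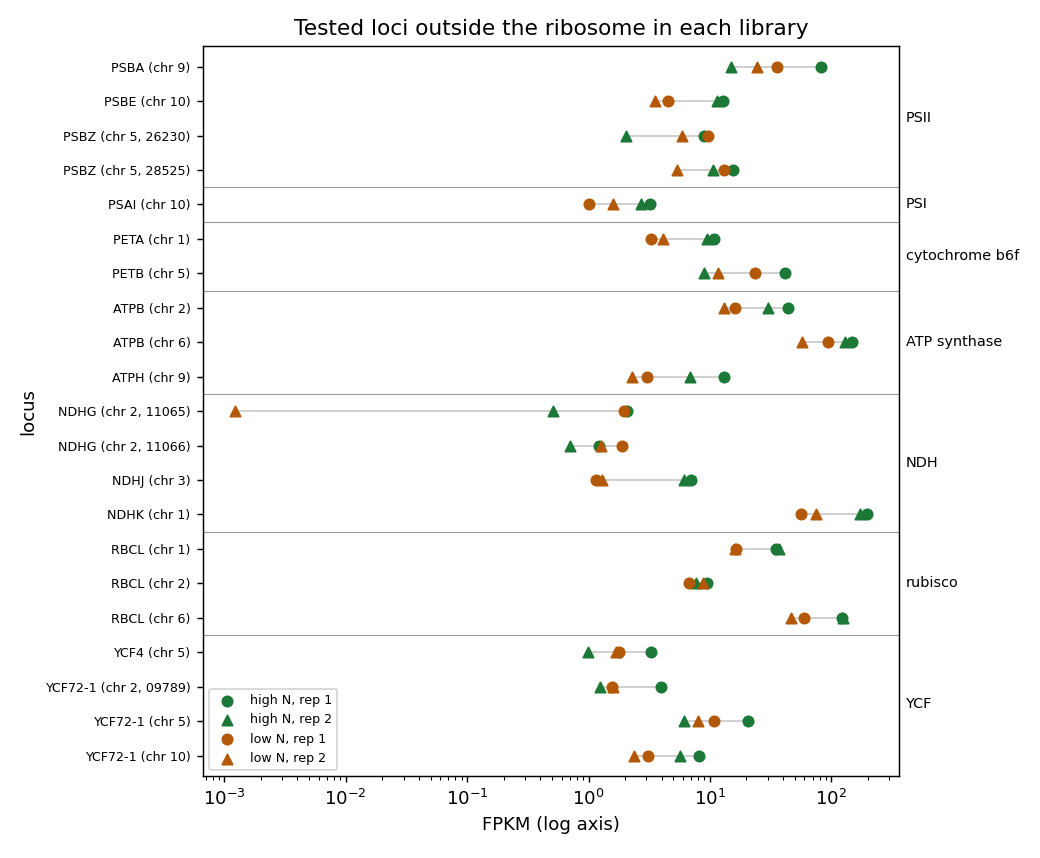
FPKM on a log axis of the 21 tested loci outside the ribosome (the nuclear-type ATPB on chromosome 6 included), with 1 point per library (circles replicate 1, triangles replicate 2, green high nitrogen, brown low nitrogen). Both low nitrogen points lie to the left of both high nitrogen points at 11 loci, among them NDHK, NDHJ, PETA and PSBE. Of all tested loci, 27.2% had both low nitrogen values below both high nitrogen values. At PSBA and PETB the high nitrogen replicates are the outermost points.

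The ribosome was the largest class, with 31 loci of which 26 were tested. Ribosomal proteins build the small (RPS) and large (RPL) subunits, and plants have separate sets for the cytosol, the plastid and the mitochondrion. The most negative log2 fold change of all members was at RPL22, which encodes a protein of the large subunit. RPL22 on chromosome 2 from 65622506 to 65623891 had 154 and 99.0 FPKM under high and 19.3 and 30.6 FPKM under low nitrogen, a log2 fold change of -2.30 (SE 0.36, adjusted p by limma = 0.0885).

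RPL2-A on chromosome 10, chosen after its values were seen, had 2.52 and 1.498 FPKM under high and 0.716 and 0.724 FPKM under low nitrogen. Its low nitrogen values were both under the 1 FPKM of the filter, so its direction was set by the filter and is not read as a result. The locus does remain in the count of members with low nitrogen below high nitrogen. It also remains in the medians of the members, the ribosome and the plastid-type loci.

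RPL29 stood out among the nuclear-type loci. It lies on chromosome 4 from 180610547 to 180612241 and had 675 and 719 FPKM under high and 299 and 204 FPKM under low nitrogen (log2 fold change -1.49, SE 0.29, adjusted p by limma = 0.117). RefSeq has the symbol in a nuclear gene, and since both cytosolic and plastid ribosomes have a protein called L29, the name does not say which ribosome this one belongs to. The other 21 nuclear-type ribosomal loci had log2 fold changes from -0.57 to 0.56.

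The other nuclear-type ribosomal loci followed 1 library more than the treatment. RPL10 on chromosome 5 was level, with 106 and 115 FPKM under high and 109 and 104 FPKM under low nitrogen. RPS21 had 72.5 and 65.5 FPKM under high and 70.1 and 40.6 FPKM under low nitrogen. RPS21 was chosen as an example after its values were seen. There low nitrogen replicate 1 was at the level of high nitrogen and replicate 2 was below all other libraries. Low nitrogen replicate 2 was the lowest of the 4 libraries at 21 of the 23 nuclear-type loci, at 8 of the 24 tested plastid-type loci and at 25.0% of all tested loci. Over the 26 tested ribosomal loci the median log2 fold change was -0.37, and it was -0.0042 without low nitrogen replicate 2 and -0.70 without low nitrogen replicate 1. That median mostly reflects the 22 nuclear-type loci, whose own median was -0.31. The 4 tested plastid-type ribosomal loci, RPL2-A on chromosome 10 among them, had a median of -1.66.

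The highest ribosomal log2 fold changes were at RPS20 on chromosome 1, RPL30 and RPL32 on chromosome 1. RPS20 had 9.49 and 8.18 FPKM under high and 16.3 and 11.02 FPKM under low nitrogen (log2 fold change 0.56, SE 0.27, adjusted p by limma = 0.334), without overlap. RPL30 on chromosome 8 had 19.4 and 29.0 FPKM under high and 39.7 and 18.8 FPKM under low nitrogen. RPL32 had 24.2 and 28.4 FPKM under high and 37.8 and 22.04 FPKM under low nitrogen. At RPL30 and RPL32 the highest and the lowest value were both low nitrogen libraries, and without low nitrogen replicate 1 the log2 fold changes of 0.20 and 0.13 became -0.32 and -0.24.

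**Figure D3:**
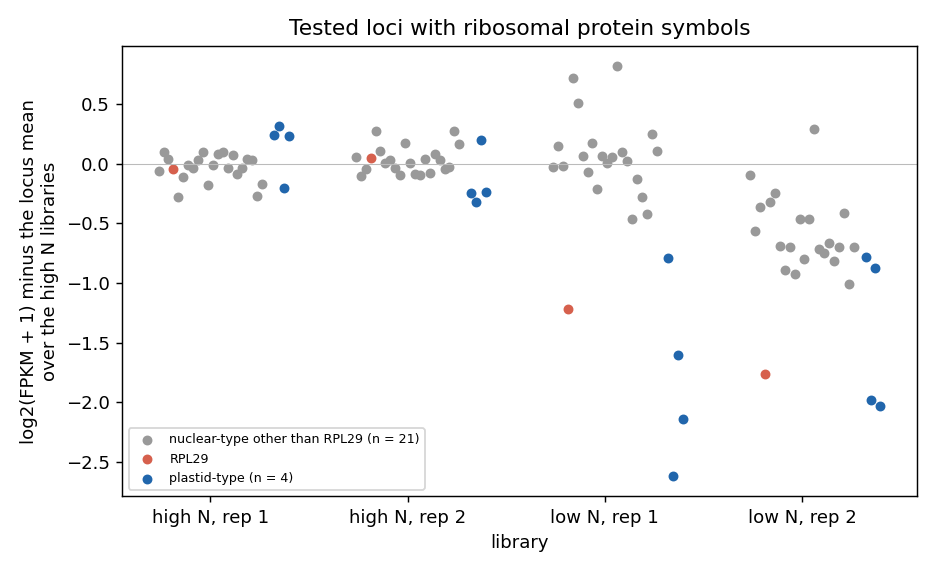
Values of the 26 tested loci with ribosomal protein symbols in each library (horizontal axis), as log2(FPKM + 1) minus the mean of the locus over the high nitrogen libraries (vertical axis). The plastid-type loci (blue, 1 of them RPL2-A, whose direction the filter set) and RPL29 (red) are below 0 in both low nitrogen libraries, whereas most of the 21 other loci (grey) are near 0 in low nitrogen replicate 1 and below 0 in low nitrogen replicate 2.

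The YCF symbols mark reading frames of the plastid genome that were numbered before they had a function. YCF4 is an assembly factor of PSI, and YCF72 and YCF15 are reading frames without an established role. YCF72-1 was the symbol with the most loci, 6 in all, of which 3 were tested. Its locus at 90133148 to 90135701 of chromosome 10 had 8.11 and 5.62 FPKM under high and 3.11 and 2.38 FPKM under low nitrogen (log2 fold change -1.06, SE 0.28, adjusted p by limma = 0.159). On chromosome 5 it had 20.5 and 6.07 FPKM under high and 10.8 and 8.05 FPKM under low nitrogen. That at 9503758 to 9506164 of chromosome 2 had 3.94 and 1.25 FPKM under high and 1.55 and 1.58 FPKM under low nitrogen. Only the locus on chromosome 10 had treatments that did not overlap.

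YCF4 on chromosome 5 had 3.28 and 0.992 FPKM under high and 1.78 and 1.69 FPKM under low nitrogen, with the low nitrogen values inside the range of the high nitrogen ones (log2 fold change -0.10). The median of the 4 tested YCF loci was -0.32, and it was 0.32 without high nitrogen replicate 1 and -1.004 without high nitrogen replicate 2. Under equal FPKM sums it was 0.22.

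At some plastid-type loci high nitrogen replicate 1 exceeded replicate 2 by a wide margin. The excess was at least 1 on the log2 scale at 7 of the 24 tested plastid-type loci, at 0 of the 23 nuclear-type loci and at 3.72% of all tested loci. The 7 were PSBA (2.38), PETB (2.101), PSBZ at 210341357 on chromosome 5 (1.73), YCF72-1 on chromosome 5 (1.61) and on chromosome 2 (1.13), YCF4 (1.10) and NDHG with the ID XLOC_011065 (1.02). Their log2 fold changes between treatments ran from -0.38 to 0.64. The treatments overlapped at all 7, which high nitrogen replicates so far apart make likely by themselves. Close high nitrogen replicates did not go with 1 size of treatment difference. The replicates differed by 0.15 at NDHJ and by 0.28 at RBCL on chromosome 2, where the treatment differences were -1.76 and -0.13. At ATPH and RPL22 the replicates differed by 0.85 and 0.63, with treatment differences of -1.53 and -2.30. Whether fragments of the plastid genome itself, which can match such loci, differed between the libraries was not tested.

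**Figure D4:**
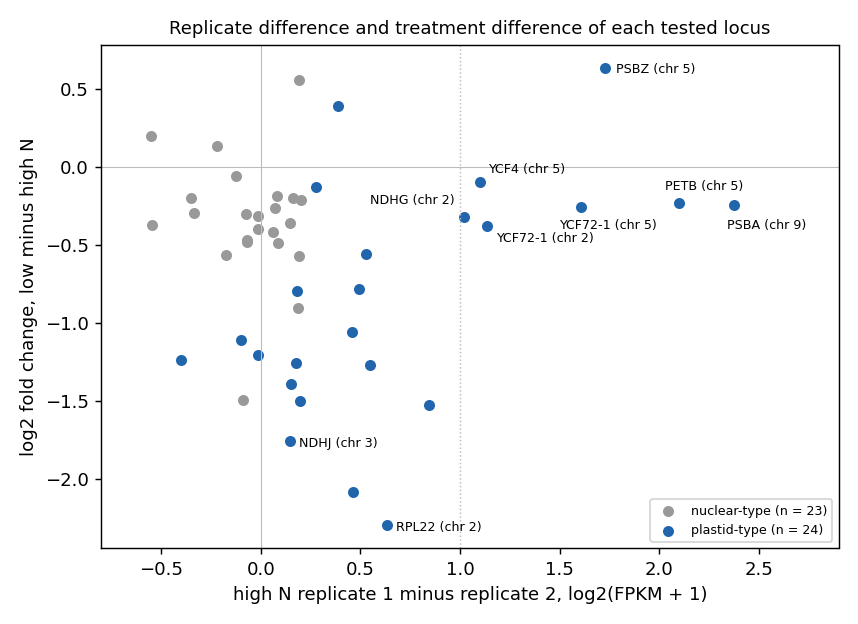
Each point is a tested member. The horizontal axis is high nitrogen replicate 1 minus replicate 2 and the vertical axis is low minus high nitrogen, both on log2(FPKM + 1). The 7 loci to the right of the dotted line at 1 are all plastid-type and lie between -0.38 and 0.64 on the vertical axis, and RPL22 (-2.30) and NDHJ (-1.76) are labelled near the lower edge.

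Symbols of nuclear subunits (PSAD, PSAH, PSAN, PSBQ, PSBS, ATPC, RBCS and rubisco activase) were found at 13 loci, and 12 were tested. None was called, against 0.537% of all tested loci. At an unadjusted p under 0.05, 11 were lower and 0 higher, against 10.8% and 9.29% of all tested loci, and the median log2 fold change was -1.12. At an RBCS locus with values at or near 0 in 1 library of each treatment, the treatments overlapped. PSAH, a PSI subunit, had 12293 and 13120 FPKM under high and 6624 and 5281 FPKM under low nitrogen. ATPC1, the gamma subunit of the ATP synthase, had 1365 and 1434 FPKM under high and 705 and 388 FPKM under low nitrogen. Others were low, such as the rubisco activase locus RCA3 with 7.84 and 8.59 FPKM under high and 2.1 and 2.45 FPKM under low nitrogen. Over the 12 loci the median of the mean levels was 1867 FPKM. Over the tested plastid-type loci, none of which is shown to be the plastid gene itself, it was 8.13 FPKM.

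Nuclear factors that transcribe, splice, process or translate plastid RNA had log2 fold changes in both directions, 11 negative and 8 positive. Of the 22 loci found for the list, 19 were tested and 0 were called, and 1 had an unadjusted p under 0.05 (20.1% of all tested loci did), SIG6, a sigma factor of the plastid polymerase. SIG6 had 179 and 156 FPKM under high and 99.4 and 80.0 FPKM under low nitrogen. CRS1 and CAF2, which splice plastid introns, had log2 fold changes of -0.13 and -0.19. Other factors of the list had larger ones in either direction, such as CFM3 (-0.63), CRS2 (-0.61), RNC1 (-0.61), CAF1 (-0.46), CFM2 (0.76) and WTF1 (0.72). The median over the 19 loci was -0.19, from -1.14 (HCF60) to 0.78 (PPR10). At 18 of the 19 low nitrogen replicate 1 was above replicate 2, as it was at 11481 of the 22889 tested loci. The median of this replicate difference, on log2(FPKM + 1), was 0.99 for the factors and 0.0018 for all tested loci. The log2 fold changes of the factors thus rest on low nitrogen replicates that lay apart.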

How the data were processed

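Per the methods of the study, the authors ran TopHat2 against B73 RefGen_v3 on paired-end reads, built transcripts in StringTie and used edgeR for their own test. The deposited values are FPKM per locus and library. A table row repeats a locus that carries several names, so each locus was counted once.

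log2(FPKM + 1) was fitted with limma 3.58.1 in R 4.3.3 (eBayes with a trend) for loci that reached 1 FPKM in 2 or more libraries, with Benjamini-Hochberg adjustment over 22889 loci. The fit was tested on simulated data. With 2 libraries against 2, an exact two-sided permutation test cannot go below p = 0.333, so none was used. The p-values measure the spread between these libraries. FPKM holds no counts, so counting intervals were not given.

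The members and lists were chosen with earlier results of these data known. In a complex with at most 8 tested members all were named. In the ribosome the 4 highest means and the 3 most negative and 3 most positive log2 fold changes were named, with others only where stated, and some loci that this rule names are not reported here. Nuclear subunits, expression factors and markers were matched by symbol or gene ID.

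Alternatives were another pseudocount (0.1), other filters, 3 other scalings, no trend, a replicate block, leaving out each library and other member rules. Requiring values above 0 in all libraries and taking the plastid-type loci alone were chosen after seeing the data. Near-identical copies, including the plastid genome, may share fragments, and how the authors' programs assigned them is not given in the sources used here. Summaries were made in Python 3.11.15 with pandas 2.3.3 and numpy 2.4.6, and plots with matplotlib 3.10.9.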

Additional observations from a re-analysis of the deposited data

How the results depend on the processing

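The count of called members was 0 in every alternative but the replicate block, where it was 3, among them RPL22 (adjusted p = 0.0446) and NDHJ (adjusted p = 0.0476). The block also moved the calls over all loci from 123 to 617. Deviations of same-numbered libraries had a correlation of 0.203 across loci, and no source says that equal numbers form a pair. The calls over all loci were 23 with no filter, 60 under equal FPKM sums, 78 with values above 0 in all libraries, and 0 to 16 with 1 library left out.

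Equal FPKM sums moved the median of all tested loci to 0.59, and medians became 0.23 (members), 0.26 (PSII), -0.33 (PSI), -0.11 (cytochrome b6f), -0.59 (ATP synthase), -0.43 (NDH), -0.43 (rubisco), 0.32 (ribosome), 0.22 (YCF), -0.42 (plastid-type) and 0.39 (nuclear-type). The PSI median was -1.16 and the NDH median -1.42 with a pseudocount of 0.1. The NDH median was -0.19 with no filter and -1.63 with a minimum of 5 FPKM. The rubisco median was -0.98 after quantile normalization. All ATP synthase medians include the nuclear-type ATPB on chromosome 6. The members' median was -0.93 for plastid-type loci alone. With 1 library left out, medians ran from -0.71 to -0.07 (members), -1.13 to 0.32 (PSII), -0.98 to -0.61 (PSI), -1.31 to -0.17 (cytochrome b6f), -1.54 to -0.99 (ATP synthase), -1.21 to -0.61 (NDH), -1.16 to -1.03 (rubisco), -0.70 to -0.0042 (ribosome), -1.004 to 0.32 (YCF), -1.13 to -0.77 (plastid-type) and -0.69 to 0.024 (nuclear-type).

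Signs of single loci turned in some settings, and causes at the loci themselves were not tested. Equal FPKM sums multiplies all loci of a library by the same factor and moved the median of all tested loci to 0.59. Signs in that setting are therefore to be read beside that median. Under equal FPKM sums the log2 fold change was 0.44 at PSBA, 0.43 at PETB, 0.084 at PSBZ (XLOC_028525), 0.36 at YCF4, 0.081 and 0.38 at YCF72-1 on chromosomes 2 and 5, 0.64 at RPL10 and 0.50 at RBCL on chromosome 2. Quantile normalization gave 0.22 at RPL10. With 1 library left out, the log2 fold change ran from -1.43 to 0.94 at PSBA, -1.28 to 0.82 at PETB, -1.10 to 0.46 at NDHG (XLOC_011065), -0.23 to 1.501 at PSBZ (XLOC_026230), -1.13 to 0.020 at PSBZ (XLOC_028525), -0.65 to 0.46 at YCF4, -0.95 to 0.19 at YCF72-1 on chromosome 2, -1.06 to 0.55 at YCF72-1 on chromosome 5, -0.12 to 0.0023 at RPL10, -0.32 to 0.72 at RPL30, -0.24 to 0.51 at RPL32 on chromosome 1, and -0.30 to 0.040 at RBCL on chromosome 2.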

Other observations

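Loci without a plastid symbol that share their listed bounds with a member were also read. Of the 16 that were tested, 0 were called, against 0.537% of all tested loci. An unadjusted p under 0.05 was found at 6, each with less in low nitrogen. Over all tested loci 10.8% were lower and 9.29% higher at such a p. The median log2 fold change was -0.46, against -0.01 for all tested loci. Among the 6 is GRMZM5G899315, with 4.53 and 3.53 FPKM under high nitrogen and 0 in both low nitrogen libraries. It passed the filter through its high nitrogen libraries alone, so the filter set its direction, which is not read as a result. It remains in the count of 6 and in the median. All loci of this kind were chosen for their position after the members' values were seen.

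GRMZM2G448151, which shares bounds with NDHK, had 156 and 104 FPKM under high and 18.4 and 36.3 FPKM under low nitrogen (log2 fold change -2.26, adjusted p by limma = 0.106). Its low nitrogen values lay below its high nitrogen values, as did those of NDHK. At the locus listed under both GRMZM2G450762 and GRMZM2G523904 on chromosome 1, whose member neighbours were untested, replicate 1 exceeded replicate 2 in both treatments, with 63.5 and 13.9 FPKM under high and 82.7 and 33.6 FPKM under low nitrogen.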
